A study of Oryza sativa with 36 samples.

Results

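LAC4 and LAC7 are rice laccase genes, read on the Affymetrix rice genome array by the probe sets Os.12346.1.S1_at (LAC4, gene identifier 4327500) and Os.14830.1.S1_a_at (LAC7, gene identifier 4324802), 2 of its 57258 rice probe sets. They were taken by the identifier of their probe set and followed through all 12 groups of the series. Both were chosen by their drought changes on these same arrays, known from earlier results, so those changes are described here without a test. Each gene has 1 probe set, and both genes lie on chromosome 1, with 42 protein-coding genes between them in the reference annotation. The suffix of the LAC7 probe set marks, in the array maker's naming, probes shared by several transcripts of a gene. Whether the probes of 1 laccase also bind RNA of another was not tested.

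The plants were the line DK151, derived from IR64 and labelled as drought tolerant, grown in tubes of Turface fed with nutrient solution. Control plants were watered normally, and droughted plants had their solution drained slowly until relative leaf water content lay between 65 and 75%. Tissue was taken from leaves and roots of tillering plants, from leaves and roots during panicle elongation, and from leaves and young panicles of booting plants, with 3 arrays for each tissue, stage and treatment. The methods state that each replicate came from an individual plant. All plants share the genotype, so nothing below compares DK151 with IR64 or with a sensitive line. A value is an intensity, the brightness of a probe set on a linear scale after normalization by the authors, and can be compared between arrays for the same probe set but not between probe sets.

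Laccases are secreted multicopper oxidases that oxidise phenolic compounds with molecular oxygen. In the plant cell wall they act on monolignols, the alcohols that couple into lignin, beside the class III peroxidases, which use hydrogen peroxide for the same step. In Arabidopsis the loss of several laccases together lowers the lignin of the stem, and in several plants laccase transcripts are cut under the guidance of a conserved microRNA that accumulates when copper is short. Lignin hardens the walls of xylem vessels, fibres and, in anthers, parts of the wall that open at dehiscence.

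The labelled tissues were checked against lists of marker genes by their summed intensity. The 15 photosynthesis probe sets summed to 18707 to 120724 in leaves, 22161 to 37294 in young panicles and 690 to 12031 in roots. The 22 floral MADS-box probe sets summed to 38324 to 44630 in young panicles and at most 17035 elsewhere. The 24 root probe sets summed to 11666 to 53663 in roots and 2275 to 17963 in leaves, so these ranges overlapped. The highest root sums among leaves belonged to replicate 3 of the tillering controls (17963, against 4332 and 5730 in its replicates) and replicate 2 of the panicle elongation controls (15792, against 7200 and 7527). That second array stood furthest from its group, with a mean correlation of 0.944 with its replicates. On it 675 probe sets were at least 5-fold lower than the mean of the log2 values of its replicates. The values of that group named below are given with and without that array, apart from the order of levels. In bulk tissue, fewer cells of a type and less RNA per cell cannot be told apart.

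LAC4 was bright in watered leaves at tillering and in watered young panicles, and dim in both after drought. In leaves at tillering the control arrays read 851, 1272 and 288 and the droughted arrays 20.0, 15.8 and 14.5. Every droughted array was far below the dimmest control, and the ranges did not overlap. LAC4 fell by 5.35 ± 0.44 (SE) on the log2 scale there (n = 3 and 3). In this comparison 1.11% of all rice probe sets were called lower and 0.639% higher, where called means a limma adjusted p under 0.05 with a change of 5-fold or more. The droughted values lie under the 25th percentile of all values of the series (28.3), so the fall has no well-measured lower end, and with every value raised to that percentile it was 4.58 on the log2 scale.

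In young panicles at booting the control arrays read 1495, 908 and 649 for LAC4 and the droughted arrays 22.7, 18.6 and 24.1. Again no droughted array came near a control. The log2 change was -5.47 ± 0.44, and -5.08 with the floor at the 25th percentile. Of all rice probe sets, 0.995% were called lower and 0.648% higher in young panicles. The floral MADS-box sums were 39436 to 44630 in control and 38324 to 40062 in droughted panicles, and those of 11 anther and tapetum probe sets 22677 to 27588 and 20967 to 22686. Whether the makeup of the panicles had a part in the LAC4 fall was not tested.

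In leaves at booting LAC4 was dim whether or not the plants were droughted. It read 10.7, 19.3 and 19.7 in control and 16.2, 15.6 and 17.7 in droughted leaves. All of these values lie under the 25th percentile, and no fold is given. The share of probe sets called in booting leaves was 0.671% lower and 1.22% higher.

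In leaves at panicle elongation LAC4 lay between these extremes. The control arrays read 177, 37.1 and 172 and the droughted arrays 51.2, 45.6 and 56.8. The droughted range fell inside the control range only because of control replicate 2, the array that stood apart. The log2 change was -1.03 ± 0.44 with it and -1.78 without it. Background calls were most frequent here, with 3.55% lower and 2.62% higher.

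Roots held LAC4 at a steady middle level. At tillering the values were 208, 214 and 201 in control and 175, 282 and 136 in droughted roots, with overlapping ranges and a log2 change of -0.14 ± 0.44. At panicle elongation they were 202, 203 and 169 in control and 267, 308 and 307 in droughted roots. Every droughted root array at panicle elongation was above every control, by 0.62 ± 0.44 on the log2 scale. Called probe sets made up 1.37% lower and 0.744% higher at tillering, and 0.966% lower and 1.12% higher at panicle elongation.

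**Figure D1:**
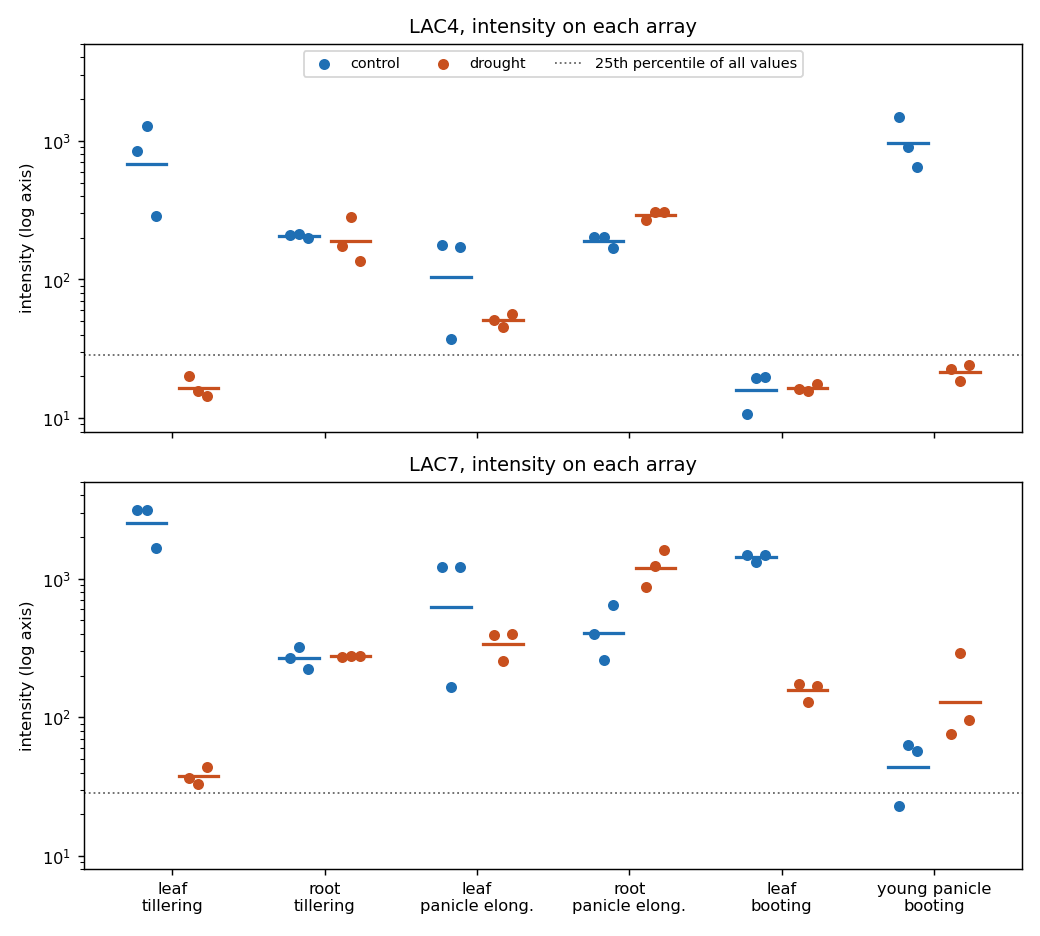
Intensity of LAC4 (top) and LAC7 (bottom) on each of the 36 arrays, on a log axis, by tissue and stage. Points are single arrays in replicate order, bars the mean of the log2 values, and the dotted line the 25th percentile of all values (28.3). LAC4 drops below that line under drought in leaves at tillering and in young panicles, while LAC7 drops in leaves at tillering and at booting and rises in panicles.

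LAC7 shared the fall in leaves at tillering and went the other way in young panicles. In leaves at tillering the control arrays read 3111, 3133 and 1657 and the droughted arrays 36.4, 33.0 and 43.9. The ranges did not overlap, and the fall of 6.08 ± 0.53 on the log2 scale was the largest change of either gene. As for LAC4, control replicate 3 was the dimmest control. Its root marker sum was the highest of the group, and the part of this in either gene's values was not tested. Without that array the falls were 5.97 for LAC4 and 6.38 for LAC7.

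In leaves at booting, where LAC4 was dim throughout, LAC7 was bright in the controls. It read 1490, 1331 and 1489 in control and 175, 129 and 169 in droughted leaves. These ranges lay far apart, and the log2 change was -3.20 ± 0.53. In leaves at panicle elongation LAC7 read 1209, 166 and 1225 in control and 390, 254 and 399 in droughted leaves. Control replicate 2 was again the low array, and the change of -0.88 ± 0.53 became -1.84 without it.

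In young panicles LAC7 was dim in the controls, at 22.8, 63.2 and 57.3, and read 76.1, 292 and 96.5 under drought. Each droughted array was above each control, though the spread within both groups was wide. The log2 change was 1.57 ± 0.53 from means of log2 values, 0.98 without droughted replicate 2 and 0.75 as a ratio of medians. In roots at panicle elongation LAC7 read 399, 259 and 646 in control and 878, 1226 and 1624 in droughted plants. These ranges did not overlap either, with a log2 change of 1.57 ± 0.53. The photosynthesis sum of the control roots also varied, from 690 in replicate 1 to 12031 in replicate 3, the array with the highest LAC7 of that group. At tillering the root values were 270, 320 and 223 in control and 271, 278 and 279 under drought, which differed by 0.04 ± 0.53 on the log2 scale.

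Within a stage, the drought change of leaves minus that of roots was -5.22 ± 0.62 for LAC4 and -6.12 ± 0.75 for LAC7 at tillering, on the log2 scale. At panicle elongation the same difference was -1.65 ± 0.62 for LAC4 and -2.45 ± 0.75 for LAC7, and without control leaf replicate 2 it was -2.40 ± 0.52 and -3.41 ± 0.58. At booting, leaves minus young panicles gave 5.51 ± 0.62 for LAC4 and -4.76 ± 0.75 for LAC7. For LAC4 this sets the fall in panicles against leaves that were dim in both treatments, where a fall could not be read. For LAC7 it sets the fall in leaves against a rise in panicles. These differences are descriptions, as the genes were chosen with them in view.

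Ordered by mean log2 intensity, LAC4 was highest in watered young panicles (mean 1017 ± 433, SD, n = 3) and watered leaves at tillering (804 ± 494), which overlapped. The 4 root groups followed, from 293.9 ± 23.7 in droughted roots at panicle elongation to 198 ± 75.8 in droughted roots at tillering. Droughted roots at panicle elongation overlapped watered leaves at tillering and droughted roots at tillering, but neither group of watered roots. Leaves at panicle elongation came next. The last 4 groups, droughted panicles, droughted leaves at tillering and both groups of booting leaves, lay below a gap, and each overlapped the next in order. LAC7 had its highest mean in watered leaves at tillering (2634 ± 846), apart from the next group, watered leaves at booting (1437 ± 91.5). Its order then ran through droughted roots at panicle elongation (1243 ± 373) and watered leaves at panicle elongation (867 ± 607), each overlapping its neighbour. The chain of overlaps went on through the other root groups and droughted leaves at panicle elongation, down to watered roots at tillering. Droughted booting leaves lay below the range of watered roots at tillering, while droughted panicles spread widely enough to overlap both. Its lowest groups were watered young panicles (47.8 ± 21.8) and droughted leaves at tillering (37.8 ± 5.58), which overlapped.

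The control groups allow comparisons between tissues and stages that do not set drought against control. A deep fall under drought needs bright controls, so comparisons that use the controls of leaves at tillering or of booting plants draw on values behind the choice of the genes and are given without a test. Both laccases were higher in watered leaves than in watered roots at tillering, with no overlap of the arrays. The log2 difference was 1.71 ± 0.44 for LAC4 and 3.24 ± 0.53 for LAC7. Of all rice probe sets, 52.1% passed the test in this contrast (limma, adjusted p under 0.05), so a difference between these organs was common. At panicle elongation neither gene passed between leaf and root, where 47.6% of probe sets did. LAC4 differed there by -0.87 ± 0.44 (limma, adjusted p = 0.11) and LAC7 by 0.63 ± 0.53 (limma, adjusted p = 0.35). Without control leaf replicate 2 the LAC7 difference was 1.58 and passed (limma, adjusted p = 0.0034), whereas that of LAC4 was -0.13 (limma, adjusted p = 0.82). Without control leaf replicate 1 or 3, which leaves replicate 2 with 1 other array, LAC4 passed as lower in leaves, at -1.26 and -1.24 (limma, adjusted p = 0.032 and 0.037). Between watered roots of the early and the later stage the log2 differences were -0.12 ± 0.44 for LAC4 and 0.60 ± 0.53 for LAC7, neither past the test (limma, adjusted p = 0.95 and 0.70), where 1.96% of probe sets passed.

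Between watered young panicles and leaves at booting the 2 genes stood opposite to each other. LAC4 was higher in panicles by 5.91 ± 0.44 on the log2 scale, and LAC7 was lower there by a log2 difference of -5.04 ± 0.53. No array of either tissue overlapped the other for either gene, in a contrast where 50.5% of probe sets passed. The LAC4 reading of booting leaves lies under the 25th percentile, and with the floor there the difference was 5.08.

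In watered leaves LAC4 was lower at each later stage, and the arrays of successive stages did not overlap. From tillering to panicle elongation LAC4 differed by -2.70 ± 0.44, and from panicle elongation to booting by -2.70 ± 0.44 again. Without the outlying leaf array these differences were -1.96 and -3.45. Over the same steps 6.94% and 20.7% of probe sets passed. LAC7 was lower at panicle elongation than at tillering by a log2 difference of -2.01 ± 0.53, which was -1.05 without that array. From panicle elongation to booting LAC7 differed by 1.19 ± 0.53, a difference of 0.24 without the outlying array and of 1.67 and 1.68 without replicate 1 or 3 of its group.

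The rest of the family was read from 11 further probe sets of 11 genes. The symbols LAC3, LAC10, LAC15, LAC19, LAC20, LAC23 and LAC24 gave 7 of them. The other 4, Os01g0842500, Os05g0458600, Os01g0850800 and Os12g0259800, could be paired with a probe set only through the study's own tables of genes that respond to drought on these arrays, so their calls are not independent evidence. Over the 6 drought comparisons, 5 of 66 tests of a laccase were called lower and 1 higher. The share of all probe sets called in a comparison ran from 0.671% to 3.55% lower and from 0.639% to 2.62% higher.

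In young panicles 3 laccases fell together with LAC4, against 0.995% of all probe sets called lower. LAC10 read 6646, 5642 and 5071 in control and 580, 272 and 764 in droughted panicles, a log2 change of -3.54 ± 0.42 (limma, adjusted p = 1.3e-07). It is the called member that a gene symbol gave, 1 of 7. Os01g0842500, the gene next to LAC4 on the chromosome, read 2852, 3045 and 2566 in control and 164, 109.7 and 182 in droughted panicles. It fell by 4.24 ± 0.29 (limma, adjusted p = 2.1e-12). Os05g0458600 changed by -3.75 ± 0.25 (limma, adjusted p = 1.6e-12). The median change in young panicles was -1.22 over the 11 probe sets and -0.34 over the 7 found by symbol, against -0.04 over all rice probe sets.

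These 3 genes parted from LAC4 and LAC7 in leaves at tillering, where none was called lower. LAC10 changed by 0.68 ± 0.42, Os01g0842500 by 0.44 ± 0.29 and Os05g0458600 by 0.17 ± 0.25 (limma, adjusted p = 0.20, 0.22 and 0.61). None of the 11 was called in either direction in leaves at tillering, against 1.11% lower and 0.639% higher over all probe sets. LAC3, LAC15, LAC19, LAC24 and Os12g0259800 had control means of 11.1 to 27.4 there, under the 25th percentile (28.3). Os05g0458600 stood at 28.4. A 5-fold fall of these genes could hardly be read, so the lack of such calls does not show that they kept their level. The log2 change with the largest fall there was that of LAC20, -1.60, under 5-fold (limma, adjusted p = 6.1e-09). In watered plants, too, the 3 panicle genes resembled LAC4 in part, higher in young panicles than in leaves at booting by 5.36 ± 0.42 for LAC10, 4.89 ± 0.29 for Os01g0842500 and 6.45 ± 0.25 for Os05g0458600 on the log2 scale. These differences use the control arrays of the drought comparison that singled the genes out, and carry no test. In booting leaves replicate 2 of each treatment was the highest array for LAC10 (398 of the controls, 564 of the droughted) and Os01g0842500 (191 and 266). LAC4 and LAC7 did not follow it. By the interaction test, the drought change of all 3 genes differed between leaves and young panicles at booting, by 3.68 to 5.05 (log2). In that test 2.5% of all probe sets were called. Each difference contains the panicle change by which the gene was called, so it is no independent evidence.

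Outside panicles few laccases were called. Os12g0259800, listed as a multicopper oxidase, fell by 3.19 ± 0.33 in roots at tillering and by 3.04 ± 0.33 in roots at panicle elongation (limma, adjusted p = 1.4e-08 and 3.1e-08). LAC24 read 12.3, 13.0 and 20.3 in control and 167, 152 and 140 in droughted leaves at panicle elongation. It rose by 3.37 ± 0.48 (limma, adjusted p = 8.2e-07), by 3.27 without control replicate 2, and by 2.43 with the floor at the 25th percentile, under which its controls lie. The changes of Os12g0259800 and LAC24 differed between leaves and roots at panicle elongation, by 4.46 ± 0.47 and 3.13 ± 0.67 (4.33 and 3.03 without that array), where 5.95% of probe sets were called, and that of Os12g0259800 also at tillering, by 2.59 ± 0.47, where 2.99% were. Those differences, too, contain the changes by which Os12g0259800 and LAC24 were called, and are no independent evidence. In watered plants at tillering 9 of 11 laccases were lower in leaves than in roots, against 24.4% of all probe sets. LAC20 alone was higher, as LAC4 and LAC7 were, by 2.27 (limma, adjusted p = 9.2e-13). The 11 include the 4 paired only through the study's tables of drought responses, so the count is not free of that choice. Watered leaf means of LAC3, LAC15, LAC19, LAC24 and Os12g0259800 lay under the 25th percentile.

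**Figure D2:**
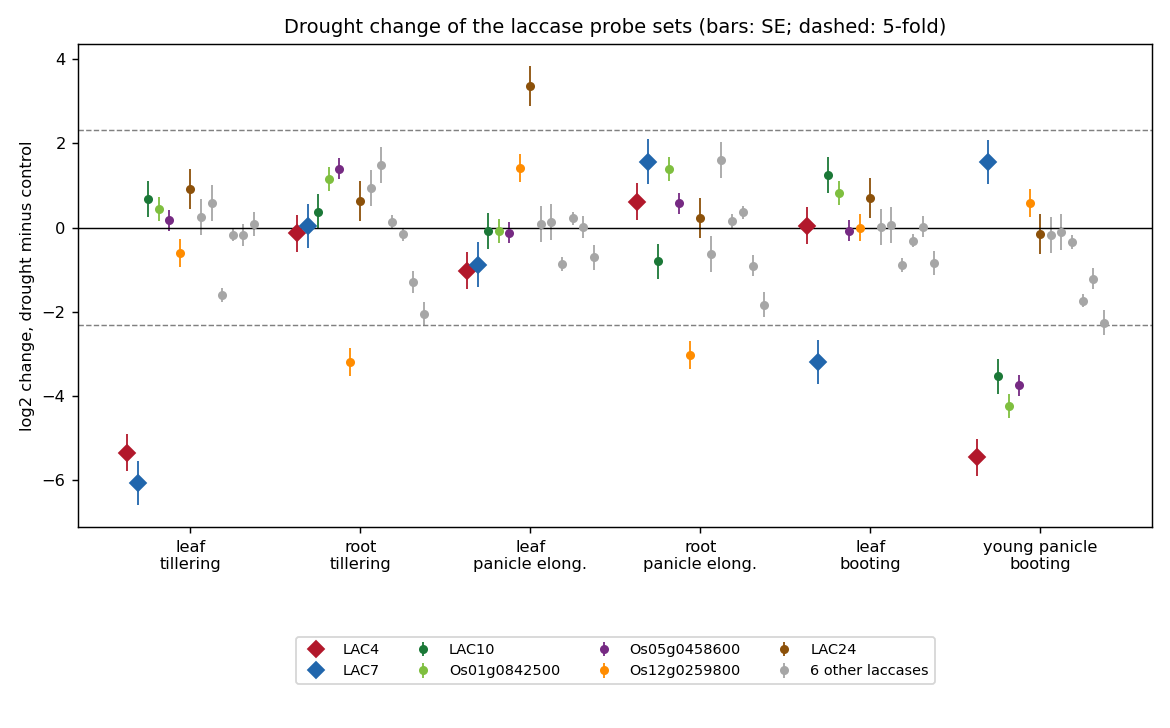
Log2 drought change of LAC4, LAC7 and the 11 other laccase probe sets in each tissue and stage. Bars are SE of the limma fit from 3 arrays a group and dashed lines mark 5-fold. Several of the other laccases were already dim in watered leaves at tillering. In leaves at tillering LAC4 (-5.35) and LAC7 (-6.08) lie far under every other laccase, and in young panicles LAC4 is joined below the lower line by LAC10, Os01g0842500 and Os05g0458600.

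Genes next to LAC4 and LAC7 on the chromosome were looked up for their own drought changes. Of the 5 annotated genes on either side of LAC4, 7 probe sets were on the array, and in leaves at tillering none was called, with a median change of -0.33. In young panicles 1 of these 7 was called lower, the laccase Os01g0842500. Around LAC7, 9 probe sets of neighbouring genes had a median change of -0.08 in leaves at tillering, with none called. In leaves at booting their median was 0.32, with 1 called higher and none lower. The shares over all probe sets were 1.11% lower and 0.639% higher in leaves at tillering and 0.995% and 0.648% in young panicles. In leaves at booting they were 0.671% and 1.22%.

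Other genes of lignin and wall building were read from lists. The monolignol list held 31 probe sets, 26 of them found by symbol. In leaves at tillering, where both laccases fell, 2 of the 26 were called lower and none higher, against 1.11% and 0.639% of probe sets. They were the phenylalanine ammonia-lyase PAL, at the entry of the phenylpropanoid pathway (-2.56 ± 0.16, adjusted p = 8.7e-13), and the 4-coumarate:CoA ligase 4CL.2 (-2.47 ± 0.51, adjusted p = 0.00028, both limma). The other probe sets of this PAL gene on the list were not called there. The median of the 31 was -0.80, against -0.08 over all probe sets. Neither laccase fell 5-fold in roots at tillering or in leaves at panicle elongation. There 3 and 4 of the 26 were called lower, against 1.37% and 3.55%. Without the outlying array the calls among all 31 in leaves at panicle elongation went from 4 to 5. None of the 26 was called lower in roots at panicle elongation or in leaves at booting, against 0.966% and 0.671%. In young panicles none of the 26 was called, against 0.995% lower and 0.648% higher over all probe sets, with a list median of -0.44. Of the members from the study's tables, the aldehyde 5-hydroxylase Os03g0112900 fell there by 4.66 ± 0.30 (limma, adjusted p = 9.8e-13) and the cinnamoyl-CoA reductase Os09g0262000 rose by 2.52 ± 0.40 (limma, adjusted p = 9.7e-06). The cinnamate 4-hydroxylase Os02g0467600 had the deepest fall of the list, -5.36 ± 0.26 in roots at tillering (limma, adjusted p = 1.7e-15).

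The 24 probe sets of cellulose synthases and secondary wall genes, all found by symbol, included members that fell in both comparisons in which LAC4 fell most. In young panicles 6 of 24 were called lower and none higher, with a median of -1.28, against 0.995% and 0.648% of all probe sets. Leaves at tillering had 4 called lower and none higher, with a median of -1.62, against 1.11% and 0.639%. Leaves at panicle elongation had 3 lower and 1 higher, and 4 and 1 without the outlying array, where the background was 3.55% lower and 2.62% higher. The 4 of leaves at tillering were BC1, a COBRA-like protein needed for stem strength, the cellulose synthases CESA1 and CESA3, and the glycosyltransferase GT43A. CESA1 and CESA3 each had another probe set on the list that was not called there. In leaves at booting, where LAC4 was dim, none of the 24 was called and the median was -0.37. There 0.671% of all probe sets were called lower and 1.22% higher. The largest changes of the list came from leaves at panicle elongation, CESA1 at -3.55 ± 0.20 and GT43G at 2.56 ± 0.26 (limma, adjusted p = 9.8e-15 and 2.4e-09), which were -3.43 and 3.08 without the outlying array. That CESA1 fall came from the probe set not called in leaves at tillering. The other CESA1 probe set was not called at panicle elongation with all arrays. Watered young panicles were above watered booting leaves in 23 of the 24 and below in none (limma, adjusted p under 0.05), as was LAC4. Over all probe sets 22.9% were higher in that contrast.

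The flavonoid branch, which draws on the same precursors, was read by 6 probe sets, 5 of them for chalcone synthase (CHS). Of these 5, 1 was called lower in leaves at tillering, against 1.11% of all probe sets. It read 2345 ± 545 in control and 80.2 ± 13.2 under drought (log2 change -4.86 ± 0.28, limma, adjusted p = 1.6e-13). The other CHS probe sets changed by -2.17 to -1.90, past the test but under 5-fold, and the list median was -1.94. The copper list held 19 probe sets, 10 of them found by symbol. In young panicles 6 of the 19 were called lower and 1 higher, all from the study's tables, with a median of -0.64 (-0.21 over the 10), where the background was 0.995% lower and 0.648% higher. None of the 19 was called lower and 1 higher in leaves at tillering, against 1.11% and 0.639% of all probe sets. That gene, the copper transporter COPT2, rose by 3.32 ± 0.26 at tillering and fell by 2.61 ± 0.26 in leaves at booting (limma, adjusted p = 5.2e-11 and 5.8e-09), the 2 comparisons in which LAC7 fell 5-fold or more. From the study's tables, the plastocyanin-like protein Os09g0469300 was higher under drought in roots at panicle elongation, by 5.45 ± 0.20, and the multicopper oxidase Os01g0127000 fell by 4.57 ± 0.28 in roots at tillering.

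The 25 class III peroxidase probe sets came almost all from the study's tables (22 of 25), and their counts are given with that limit. In roots 15 were called lower at tillering and 14 at panicle elongation, where 1.37% and 0.966% of all probe sets were and where LAC4 and LAC7 did not fall 5-fold. In leaves at tillering 2 and in young panicles 6 were called lower, against 1.11% and 0.995%. A list drawn from genes that respond to drought on these arrays says nothing about where peroxidases as a family respond. Peroxidase 1 (Os03g0368000) had the deepest fall, -5.93 ± 0.31 in roots at tillering, and the peroxidase Os03g0152300 rose by 5.74 ± 0.22 in young panicles.

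**Figure D3:**
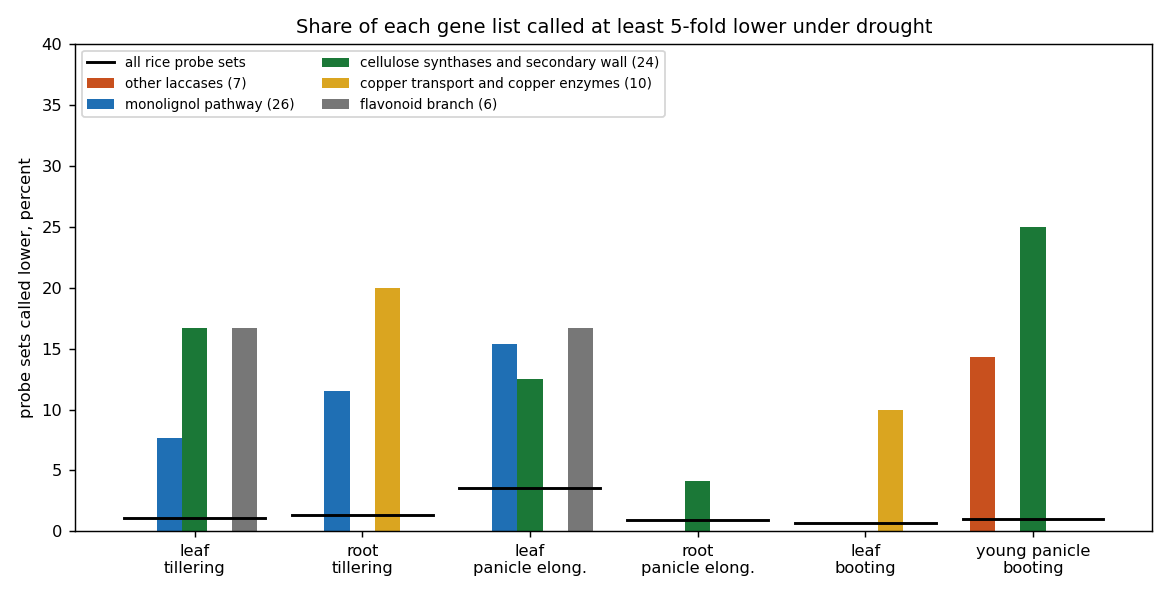
Percent of the probe sets of 5 gene lists called at least 5-fold lower under drought (limma, adjusted p under 0.05), by tissue and stage, with only members found by gene symbol (their number in the key). The black line is the share over all rice probe sets. Cellulose synthase and secondary wall genes reach 16.7% in leaves at tillering and 25% in young panicles, and are at 0 in leaves at booting.

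LAC4 and LAC7 themselves had unlike patterns. Over the 12 group means of log2 intensity their Pearson r was 0.22, over 36 arrays it was 0.23 and without the outlying array 0.24. Among the 23604 probe sets with a group mean over 200, LAC7 ranked 8467 by likeness to LAC4. These coefficients describe groups that share arrays, tissue and treatment, and carry no test.

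The named probe set most like LAC4 was Os03g0178400, an alpha/beta hydrolase, with r = 0.93. It was bright in watered young panicles (954) and dim in booting leaves (38.3 in control), as LAC4 was. Os06g0214800, an esterase or lipase, followed (0.88), then the calcium-dependent protein kinase CPK20 (0.87), OsUGE-2 (0.86), the xyloglucan endotransglycosylase OsXRT5 (0.84) and the glycoside hydrolase Os01g0296700 (0.83). The UMP/CMP kinase Os02g0778400 (0.83), the hydroxycinnamoyl transferase HCT2 (0.82), which is also on the monolignol list, the subtilisin-like protease Os03g0605300 (0.82) and the kinesin KIN14H (0.81) complete the 10. By rank correlation over the group means 5 of these 10 stayed among the nearest 10, and 8 did over the 36 arrays and 8 without the outlying array. Among laccases LAC23 was most like LAC4, with r = 0.71.

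For LAC7 the order began with SPL7 (0.88), of the SBP-box transcription factors, RA14 (0.86), OsSAP7 (0.83) and the esterase or lipase Os07g0162700 (0.83). ALK, a starch synthase (0.79), HAP3F, of the CCAAT-binding factors (0.78), OsCASPL1U2 (0.76), an aquaporin (0.75), GLB (0.72) and INP1 (0.72) followed. None of the 10 was shared with LAC4. By rank correlation 8 of the 10 stayed, over the 36 arrays 10 and without the outlying array 9. Of the other laccases, LAC20 was nearest to LAC7 (0.56) and LAC10 furthest (-0.60).

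**Figure D4:**
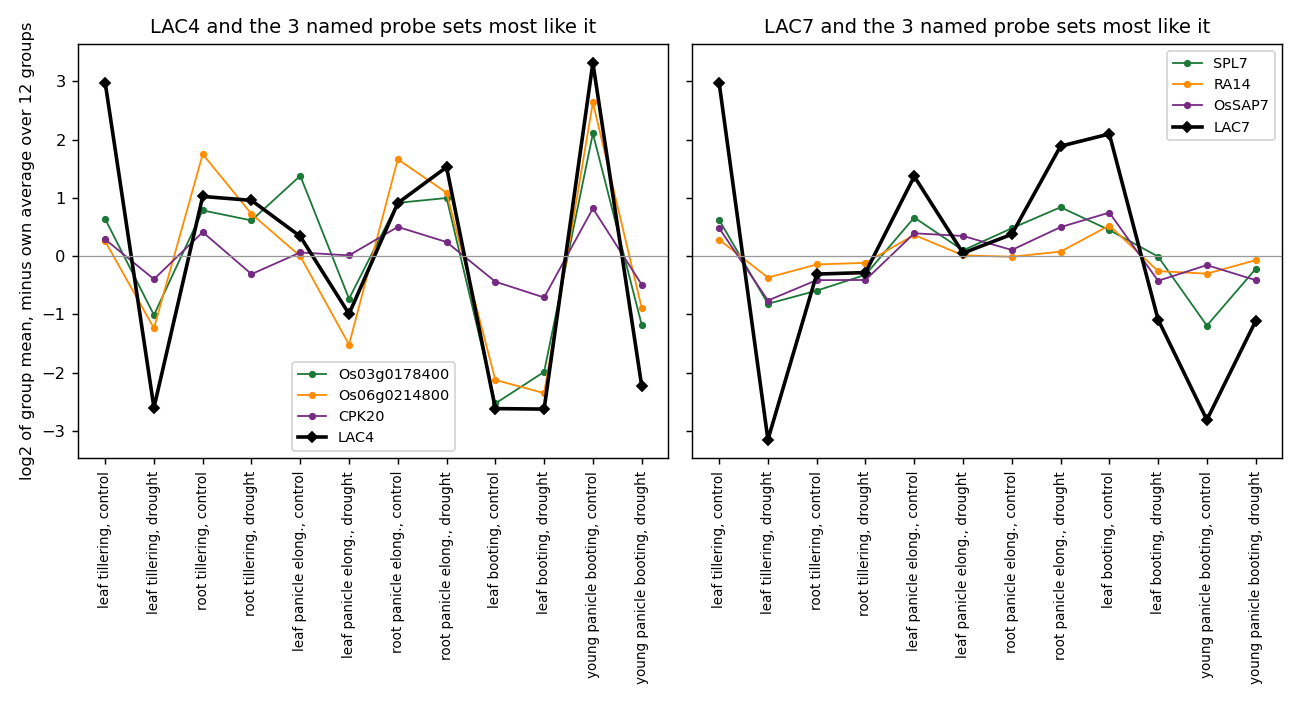
Group means of LAC4 (left) and LAC7 (right), with the 3 named probe sets most like each, as log2 of the mean intensity minus the probe set's own average over the 12 groups. The companions of LAC4 share its peak in watered young panicles and its low in booting leaves. Those of LAC7 follow it in part, with a smaller range. In young panicles OsSAP7 went from 261 in control to 219 under drought, where LAC7 rose.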

How the data were processed

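RNA of 36 samples was measured on Affymetrix rice arrays. The authors read the scans with GCOS1.4, applied dChip's invariant-set normalization and deposited 1 linear intensity for each probe set of each array. The dChip version, mismatch subtraction and genome build are not given in the sources used here. Array medians ran from 55.0 to 63.9, and with 3 arrays a group that number limits the precision.

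Intensities under 1 were set to 1 (936 values) and taken to log2, and 123 control probe sets were left out. Groups were assigned by label. The fit, with limma 3.58.1 (R 4.3.3), was a single model of 12 group means with 24 residual degrees of freedom, with Benjamini-Hochberg adjustment over 57258 probe sets. Drought calls needed an adjusted p under 0.05 and 5-fold. The step was tested on simulated data. LAC4, LAC7 and all gene lists were chosen with earlier results of these data known. Drought changes of LAC4 and LAC7 were not tested, and p-values of watered contrasts that use the same bright controls were left out. Names came from the platform annotation matched to the RefSeq table of ASM3414082v1 (22436 probe sets with 1 gene, 95 with several, 34727 with none; 3200 with a symbol) and from the study's supplementary tables.

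Text names follow a rule: both genes, laccases called under drought, the extreme called members of each list, and the 10 named probe sets of highest r with each gene, of a group mean over 200. PAL, 4CL.2, Os03g0112900, BC1, CESA3, GT43A and COPT2, and the LAC20 and LAC23 values, were added after their values were seen. Alternatives were other floors, quantile normalization, median centring, an intensity trend, other fold minima, the methods' t-test, a filter on dim probe sets, 1 probe set per gene, ratios of means or medians, the 2 groups alone, the replicate number as a block and each array left out. Replicate numbers were not used to pair the arrays, as the sources do not say what they mark. In no tissue and stage did all 3 correlations of same-numbered control and drought deviations pass 0.1. At tillering they were 0.083 to 0.31 in leaves and 0.089 to 0.42 in roots, so a pairing there is not excluded. Same-numbered arrays of different tissues were not compared.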

Additional observations from a re-analysis of the deposited data

Results flagged for a closer look

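LAC7 was lower under drought on every array of leaves at booting and higher on every array of young panicles. The 2 log2 changes differ by -4.76, and this difference was not tested, since the gene was chosen with it in view. For other laccases the drought change differed between tissues of a stage by limma's interaction test. Each such difference contains a drought change for which the gene was already called, so its p-value is no independent evidence. At booting, leaves minus young panicles gave a log2 difference of 4.78 for LAC10, 5.05 for Os01g0842500 and 3.68 for Os05g0458600 (limma, adjusted p = 4.8e-07, 2.0e-10 and 5.1e-09), where 2.5% of all probe sets were called. Leaves minus roots gave 4.46 for Os12g0259800 and 3.13 for LAC24 at panicle elongation (limma, adjusted p = 1.3e-08 and 0.00047), where 5.95% were called. At tillering the same difference was 2.59 for Os12g0259800 (limma, adjusted p = 8.9e-05), where 2.99% were called. With 3 arrays a group, no test for an outlying value was run on single genes.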

How the results depend on the processing

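Under every alternative run, LAC4 and LAC7 kept the sign of each drought change of 5-fold or more. Each drought change of either gene moved by less than the spread between replicates, but many of these runs could not do otherwise. With 3 arrays a group, leaving out 1 cannot shift a mean by more than that spread. The block, the intensity trend and the 2 groups alone leave each change as it is. The LAC7 change in leaves at panicle elongation went from -0.88 to -1.84 without control replicate 2. Between watered groups, fitting only the groups compared kept 3 leaf differences but not, by limma, an adjusted p under 0.05: LAC4 from tillering to panicle elongation (-2.70) and on to booting (-2.70), and LAC7 from tillering to panicle elongation (-2.01). Leaving out each array in turn, the leaf minus root difference at panicle elongation ran from -1.26 to -0.13 for LAC4 (adjusted p 0.032 to 0.82) and from 0.14 to 1.58 for LAC7 (limma, adjusted p 0.0034 to 0.86). The LAC7 leaf difference ran from -2.49 to -1.05 between tillering and panicle elongation and from 0.24 to 1.68 between panicle elongation and booting. With a 2-fold minimum 12 laccase tests were called lower and 8 higher, and with no minimum 17 and 9, against 5 and 1. By the methods' t-test 5 were lower and 1 higher before adjustment, and 4 and 1 after it, which lost Os12g0259800 in roots at panicle elongation (adjusted p = 0.055). In 3 alternatives chosen after seeing the data, the 5 pathway lists had 88 lower and 9 higher calls at 5-fold, 224 and 34 at 2-fold, 288 and 52 with no minimum, and 31 and 3 over members with a symbol alone. The replicate block changed no call. It could not move a drought change, such as that of LAC4 in leaves at tillering (-5.35), since every group holds each replicate number. The correlations behind the block ran from -0.17 to 0.42. The values without the outlying leaf array for interactions, pathway genes and likeness were chosen after seeing the data too. What caused these shifts was not tested. LAC4 values under the 25th percentile limit its folds.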
